A study of Trichoderma reesei with 6 samples.

Results

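The 10 sugar transporter genes described here were taken by protein ID from count tables deposited for Trichoderma reesei, a cellulase- and xylanase-secreting filamentous fungus. All 10 were found among 9129 protein IDs, and all 10 passed the filter on low counts. Of these, crt1 (protein ID 3405), stp1 (76800), xlt1 (104072) and hxt1 (22912) were named in the list that defined the set, and the other 6 are given by locus tag. The reference used here carries a symbol for 1 of them, hxt1, so the remaining names and the assignment of all others to sugar transport were not checked against a protein sequence. RNA-seq had been run on mycelia of the wild-type strain QM9414 and of a mutant deleted for cre1 (Δcre1), with 3 libraries from each strain. Both strains were cultured with 1 mM sophorose, a glucose disaccharide that induces cellulase genes in this fungus. The series text mentions harvests at 2, 4 and 6 h, and no label ties a library to a time. The sources used here do not name the parent strain of the mutant.

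Fungal sugar transporters are mostly membrane proteins of the major facilitator superfamily, which carry mono- and disaccharides across the plasma membrane. In T. reesei, crt1 is known as a transporter required for induction of cellulase genes, stp1 as a glucose and cellobiose transporter, hxt1 as a glucose transporter and xlt1 as a xylose transporter. CRE1 is a zinc finger repressor that shuts off genes for the use of other sugars while a preferred carbon source is present. The comparison of the strains asks which transcripts depend on that repressor under the inducer.

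Library totals ranged from 13122470 to 21778997 counts, and single transporters held between 67 and 412381 counts in a library. Levels are CPM, counts per 1000000 counts of a library, corrected by edgeR's trimmed mean of M values (TMM), and fold changes are the mutant over the wild type on the log2 scale. The deleted gene, cre1, was at 452 to 502 CPM in wild-type mycelia and at 42.2 to 61.8 CPM in the mutant. The mutant thus kept 10.5% of the wild-type level, and the source of these remaining counts was not tested. A pair of protein IDs without an entry in the reference took 37.8% of the counts of mutant replicate 2, against 2.7 to 11.1% in the other 5 libraries. With libraries scaled by their totals alone, all genes had a median change of -0.21 instead of 0.01, and rises are therefore smaller and falls larger on that scale. In bulk samples, fewer cells that express a gene and less RNA per cell cannot be told apart.

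Of the 10 transporters 4 rose in the mutant (xlt1, hxt1, TRIREDRAFT_67752 and TRIREDRAFT_69957), 3 fell (crt1, TRIREDRAFT_79202 and TRIREDRAFT_62380) and 3 did not pass the test (stp1, TRIREDRAFT_77517 and TRIREDRAFT_46819). The quasi-likelihood F test of edgeR, adjusted by Benjamini-Hochberg over 8190 genes with a threshold of 0.05, called 45.9% of all genes, 22.7% as higher and 23.2% as lower. The mutant and wild-type libraries did not overlap for 7 of the 10, the same 7 that were called, against 56.1% of all genes. The median size of the log2 fold change, sign left aside, was 0.64 over the 10 transporters and 0.30 over all genes. As the set was chosen with earlier results of these data known, its distance from all genes cannot be read as a trait of sugar transporters. Of the 10, 6 had an adjusted p below 0.05 in the authors' deposited table, where 25.9% of all protein IDs had one. The transporter called here and not in the authors' deposited table was TRIREDRAFT_69957. With library totals alone 2 transporters rose, xlt1 and hxt1, and 3 fell, where 4.88% of all genes rose and 19.8% fell. With the abundant pair of IDs left out of the totals before TMM scaling, 4 rose and 3 fell, where 1818 of 8202 tested genes rose and 1922 fell.

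**Figure D1:**
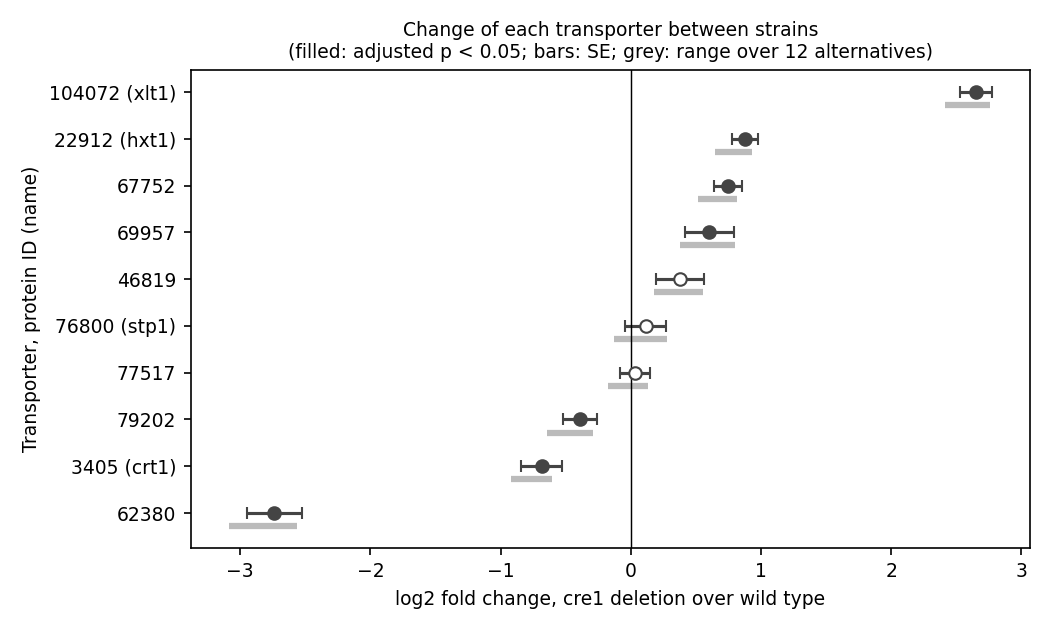
Log2 fold change of each transporter, mutant over wild type, on the x axis, with 1 row per gene. Points are the fitted values with SE bars, filled where the adjusted p was below 0.05, and grey bars span the values under 12 alternatives. The gene xlt1 at 2.65 and TRIREDRAFT_62380 at -2.74 stand far from the other 8, which lie between -0.68 and 0.88.

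The gene crt1 was by far the most abundant of the 10 in both strains and fell in the mutant. Its level was 17548, 21509 and 19051 CPM in wild-type replicates 1, 2 and 3 and 11077, 11663 and 13409 CPM in mutant replicates 1, 2 and 3. Every mutant library lay below every wild-type library. The log2 fold change of crt1 was -0.68 ± 0.16 (SE) (edgeR adjusted p = 0.00293), which left 62.2% of the wild-type level. Per kb of gene span, crt1 ranked 1st among 8154 genes in each of the 3 wild-type libraries, ahead of the cellobiohydrolase gene cel7a. In each of the 3 mutant libraries it ranked 3rd, behind the hydrophobin gene hfb2 and cel7a. IDs without an entry in the reference, the abundant pair included, have no gene span and no rank. The count of crt1 divided by that of cel7a in the same library, a ratio that needs no scaling, was 1.06 to 1.41 in the wild type and 0.484 to 0.689 in the mutant. That ratio also carries the change of cel7a, from 15449 ± 1692 CPM in the wild type to 21169 ± 5739 CPM in the mutant (mean ± SD, n = 3). The log2 fold change of cel7a was 0.45 ± 0.20 (SE) and did not pass (edgeR adjusted p = 0.0735). The call of crt1 held without any single library, at log2 fold changes between -0.78 and -0.60.

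The other transporter named for disaccharide and glucose uptake, stp1, was at 21.6, 26.3 and 26.3 CPM in wild-type mycelia and at 20.7, 26.9 and 33.0 CPM in the mutant. The strains overlapped, and mutant replicate 3 was the highest library. For stp1 the log2 fold change was 0.12 ± 0.16 (SE) (edgeR adjusted p = 0.579). Its sign was not stable, since the value was -0.13 with library totals alone and -0.082 without mutant replicate 3.

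The xylose transporter gene xlt1 had the largest rise of the set. It was at 13.6, 9.81 and 12.1 CPM in wild-type replicates 1, 2 and 3 and at 74.0, 77.4 and 71.2 CPM in the mutant replicates. The mutant libraries were close to each other and far above the wild type. In xlt1 this was a log2 fold change of 2.65 ± 0.12 (SE), a 6.28-fold rise (edgeR adjusted p = 6.96e-10). It was the 33rd largest rise among the 8190 genes tested. Under all 12 alternatives the log2 fold change of xlt1 stayed between 2.41 and 2.76.

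The hexose transporter gene hxt1 rose from 420, 462 and 412 CPM in the wild type to 751, 766 and 866 CPM in the mutant. The strains did not overlap, and the coefficient of variation between libraries was 6.28% in the wild type and 7.85% in the mutant. For hxt1 the log2 fold change was 0.88 ± 0.10 (SE), a 1.84-fold rise (edgeR adjusted p = 6.26e-06). Within a library the count of crt1 was 41.8 to 46.5 times that of hxt1 in the wild type and 14.7 to 15.5 times in the mutant.

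TRIREDRAFT_62380 had the largest fall of the set. It was at 49.2, 53.8 and 52.1 CPM in wild-type mycelia and at 6.86, 5.19 and 10.8 CPM in the mutant. The wild-type libraries were close together, whereas the mutant libraries, with 168, 67 and 225 counts, lay further apart, replicate 3 being the highest. The coefficient of variation was 4.53% in the wild type and 37.9% in the mutant. The mutant-to-wild-type log2 fold change of TRIREDRAFT_62380 was -2.74 ± 0.21 (SE), a level 14.7% of the wild type (edgeR adjusted p = 6.24e-06). It was the 135th largest fall among the genes tested, and without single libraries the log2 fold change ranged from -3.09 to -2.56. The count of xlt1 divided by that of TRIREDRAFT_62380 in the same library was 0.182 to 0.277 in the wild type and 6.59 to 14.9 in the mutant. This pair joins the largest rise and the largest fall of the set, so its ratio restates those changes.

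TRIREDRAFT_79202, the next most abundant transporter after crt1, fell by a smaller amount. Its level was 1569, 2050 and 1825 CPM in wild-type mycelia and 1183, 1448 and 1519 CPM in the mutant. The highest mutant library lay just below the lowest wild-type library. The log2 fold change of TRIREDRAFT_79202 was -0.39 ± 0.13 (SE) (edgeR adjusted p = 0.0257). It no longer passed when wild-type replicate 2 or 3 was left out (edgeR adjusted p = 0.122 and 0.0688), nor when mutant replicate 1 or 2 was (0.0768 and 0.061). Its adjusted p over the 12 alternatives, DESeq2 included, ran from 0.00565 to 0.122. The count of crt1 was 10.4 to 11.2 times that of TRIREDRAFT_79202 in wild-type libraries and 8.06 to 9.37 times in mutant libraries.

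TRIREDRAFT_67752 rose from 63.1, 53.1 and 56.3 CPM in the wild type to 88.6, 88.5 and 112 CPM in the mutant. Mutant replicate 3 was the highest, and no mutant library reached down to the wild type. This gave TRIREDRAFT_67752 a log2 fold change of 0.75 ± 0.11 (SE) (edgeR adjusted p = 5.73e-05). With library totals alone it was 0.52 ± 0.24 and did not pass (edgeR adjusted p = 0.0964). Over the 12 alternatives, DESeq2 included, its adjusted p ran from 6.12e-08 to that value.

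TRIREDRAFT_69957 was the lowest of the set in the wild type, at 8.22, 6.05 and 5.24 CPM, and was at 11.1, 8.91 and 9.22 CPM in the mutant. The lowest mutant library and the highest wild-type library, replicate 1, were close to each other. TRIREDRAFT_69957 thus had a log2 fold change of 0.60 ± 0.19 (SE) (edgeR adjusted p = 0.0166). It did not pass once wild-type replicate 2 or 3 (edgeR adjusted p = 0.0659 and 0.0875) or mutant replicate 1 (0.0541) was left out, nor with library totals alone (0.427). The smallest adjusted p of the 12 alternatives, DESeq2 included, was 0.00516.

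TRIREDRAFT_46819 was at 13.4, 12.3 and 10.6 CPM in wild-type mycelia and at 17.3, 10.9 and 18.4 CPM in the mutant. Mutant replicate 2 lay within the wild-type range and the other mutant libraries above it. The log2 fold change of TRIREDRAFT_46819 was 0.38 ± 0.18 (SE) and did not pass (edgeR adjusted p = 0.105), but it was 0.55 and passed without mutant replicate 2 (edgeR adjusted p = 0.0135, against up to 0.738 over the 12 alternatives). TRIREDRAFT_77517 was at 110, 130 and 105 CPM in wild-type mycelia and at 138, 108 and 107 CPM in the mutant, with overlapping strains. Its log2 fold change was 0.03 ± 0.11 (SE) (edgeR adjusted p = 0.844). The sign for TRIREDRAFT_77517 turned with library totals alone (-0.17), without wild-type replicate 3 (-0.03) and without mutant replicate 1 (-0.10).

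**Figure D2:**
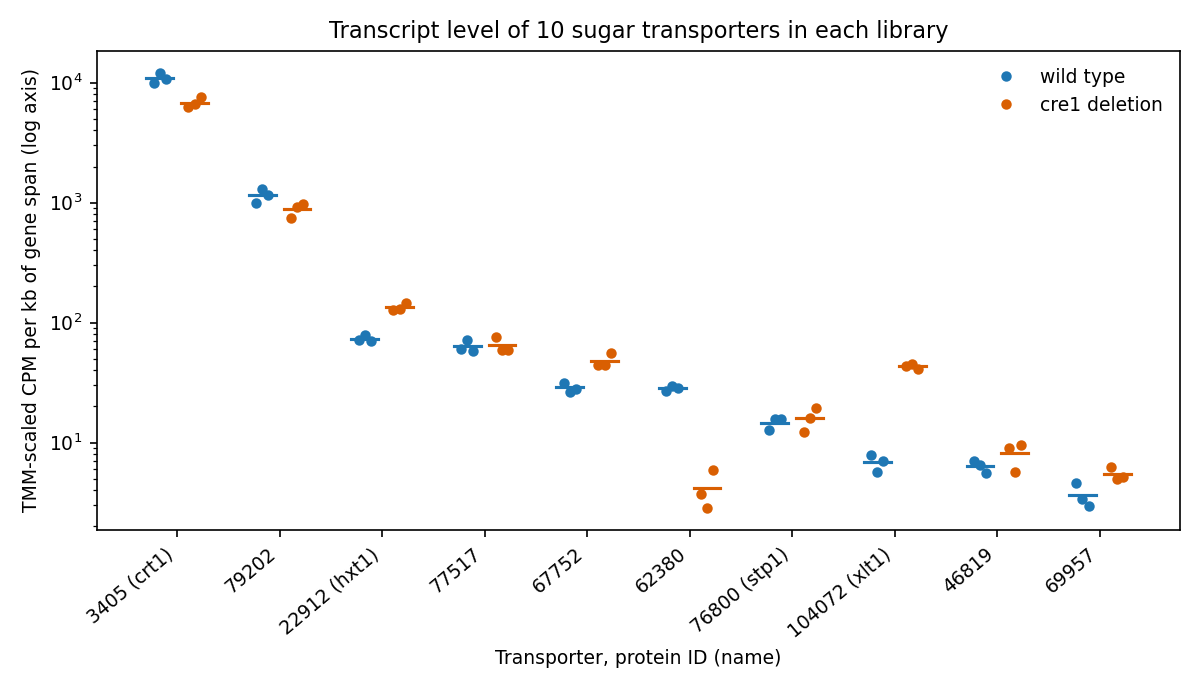
TMM-scaled CPM per kb of gene span on a log axis, with 1 point per library and a line at the mean, for the wild type and the cre1 deletion. The gene crt1 lies far above all others in both strains, and xlt1 and TRIREDRAFT_62380 are the genes whose points moved most, in opposite directions.

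Levels of different genes were compared per kb of gene span, taken from the reference and including introns. Gene spans of the set ran from 1575 to 2000 bp except that of hxt1, which was 5904 bp, so that the level of hxt1 per kb is low beside its CPM. In the wild type crt1 stood at 10937 ± 1129 CPM per kb (mean ± SD, n = 3) and TRIREDRAFT_79202 at 1152 ± 153. The hxt1 level of 73.1 ± 4.59 and the TRIREDRAFT_77517 level of 63.2 ± 7.34 CPM per kb overlapped between libraries. TRIREDRAFT_67752 at 28.8 ± 2.53 and TRIREDRAFT_62380 at 28.2 ± 1.28 CPM per kb also overlapped, and stp1 followed at 14.7 ± 1.61. The lowest levels were those of xlt1 at 6.89 ± 1.12, TRIREDRAFT_46819 at 6.33 ± 0.75 and TRIREDRAFT_69957 at 3.65 ± 0.86 CPM per kb, the first pair again overlapping.

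In the mutant the 5 highest transporters kept their order, from crt1 at 6804 ± 685 and TRIREDRAFT_79202 at 878 ± 113 CPM per kb down to TRIREDRAFT_67752 at 48.2 ± 6.78. The gene xlt1 moved from position 8 to position 6, at 43.2 ± 1.82 CPM per kb, where its libraries overlapped those of TRIREDRAFT_67752. TRIREDRAFT_62380 moved from position 6 to position 10, at 4.16 ± 1.58 CPM per kb, overlapping TRIREDRAFT_69957 at 5.46 ± 0.66, which in turn overlapped TRIREDRAFT_46819 at 8.12 ± 2.10. Of 45 pairs of transporters, 4 were in one order in every wild-type library and in the other order in every mutant library. In these pairs xlt1 overtook stp1 and TRIREDRAFT_62380, and stp1 and TRIREDRAFT_46819 also overtook TRIREDRAFT_62380. Among 8154 genes xlt1 moved from ranks between 6268 and 6640 in the wild type to ranks between 2469 and 2684 in the mutant, and hxt1 from ranks between 1263 and 1495 to ranks between 555 and 631.

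The summed level of the 10 transporters was 19816, 24313 and 21556 CPM for wild-type replicates 1, 2 and 3, and 13367, 14201 and 16155 CPM for the mutant replicates. No mutant library reached the wild-type range, and an exact two-sided permutation test over samples gave p = 0.1, the smallest that 3 against 3 libraries allow. The log2 ratio of the means was -0.59. Without crt1, the other 9 summed to 2526 ± 269 CPM before and 2525 ± 228 CPM after the deletion (mean ± SD, n = 3), with overlapping libraries. The 10 genes took 2.21 to 2.68% of all counts in wild-type libraries and 1.01 to 1.54% in mutant libraries, the lowest share being that of mutant replicate 2. With the abundant pair of IDs left out of the total, the mutant shares were 1.61, 1.62 and 1.74% in replicates 1, 2 and 3, and that replicate was no longer the lowest.

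The share of crt1 in the summed counts was 88.6, 88.5 and 88.4% for wild-type replicates 1, 2 and 3, and 82.9, 82.1 and 83.0% for the mutant replicates. The difference of -5.80 percentage points, or -3.85 with counts divided by gene span, exceeded the spread within either strain, with p = 0.1 in an exact two-sided permutation test, again the smallest possible. The share of hxt1 went from 1.98 ± 0.12% to 5.46 ± 0.14%, and that of xlt1 from 0.0551 ± 0.0142% to 0.513 ± 0.063% (mean ± SD, n = 3). With counts divided by gene span, the share of hxt1 went from 0.595 ± 0.038% to 1.68 ± 0.05%. Smaller shares varied within a strain, that of TRIREDRAFT_77517 being 1.03, 0.758 and 0.662% in mutant replicates 1, 2 and 3. TRIREDRAFT_79202, whose own level fell, held 8.27 ± 0.31% of the sum in the wild type and 9.48 ± 0.68% in the mutant.

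**Figure D3:**
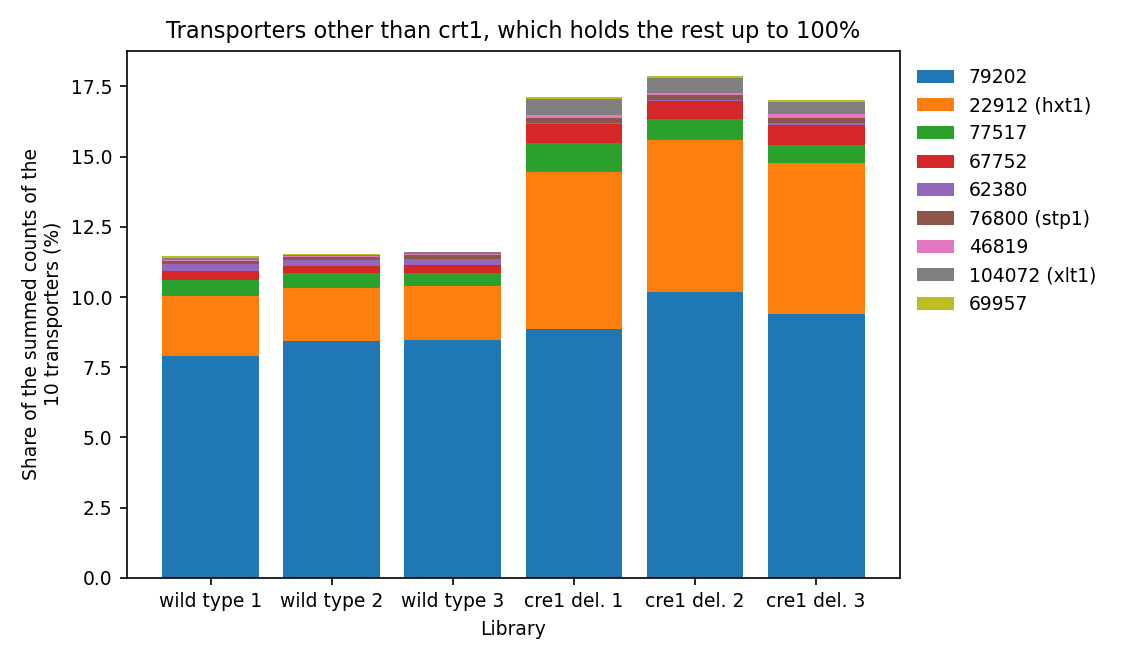
Share of the summed counts of the 10 transporters held by each of the 9 genes other than crt1, in percent, with 1 stacked bar per library. Counts are not divided by gene span. The bars reach about the same height within a strain, and the hxt1 share is 1.90 to 2.12% in wild-type and 5.36 to 5.62% in mutant libraries.

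For each transporter that passed the test, the genes with the most similar profile over the 6 libraries were sought among 220 tested genes with a symbol (219 for hxt1). Likeness was the root mean square difference of log2 CPM after each profile was centred on its mean, in log2 units, over libraries of both strains together. The gene closest to crt1 was cel1a, an intracellular beta-glucosidase gene, at 0.0501, followed by the elongation factor gene tef2 at 0.0674. The level of cel1a went from 3935 ± 518 to 2542 ± 352 CPM (mean ± SD, n = 3). The count of crt1 was 4.77 to 5.03 times that of cel1a in wild-type libraries and 4.59 to 4.98 times in mutant libraries, so that these ranges overlapped. As cel1a was picked for its likeness to crt1 in these same libraries, the overlap follows from that choice.

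The nearest genes to TRIREDRAFT_79202 were the galactokinase gene gal1 at 0.0749 and the ATP citrate lyase gene acl2 at 0.0814. For hxt1 they were pdi1, which encodes protein disulfide isomerase, at 0.0936 and the small GTPase gene rsr1 at 0.0999. For TRIREDRAFT_67752 they were acu9 at 0.0614 and cdc42 at 0.113, and for TRIREDRAFT_69957 they were chi18-9 at 0.145 and rac1 at 0.156. The partners of the most strongly changed transporters were further away. The nearest genes to xlt1 were ooc1 and chi18-12, at 0.369 and 0.372, and those to TRIREDRAFT_62380 were cre1 itself, the deleted gene, at 0.30 and cro1 at 0.311. Among the transporters themselves hxt1 and TRIREDRAFT_67752 were nearest to each other, at 0.142, and crt1 and TRIREDRAFT_79202 at 0.163.

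No transporter of the set lay within 2 genes of another in the reference gene order. Of 40 flanking genes 32 were tested, of which 8 rose and 9 fell, against 2 and 4 with library totals alone, so that the share called was near the 45.9% of all genes. Next to crt1, TRIREDRAFT_106164 fell by 0.52 ± 0.08 (SE) on the log2 scale, while TRIREDRAFT_26163 on its other side was at 0.03 ± 0.13 and did not pass. One gene further, TRIREDRAFT_59364 fell by 2.09 ± 0.15, its CPM going from 23.1 ± 3.10 to 5.45 ± 0.32 (SD, n = 3). On the other side TRIREDRAFT_47069 fell by 0.32 ± 0.08, a call lost with library totals alone. Neither gene next to xlt1 was called. TRIREDRAFT_104073, at 281 bp from it, had a log2 fold change of 0.33 ± 0.31 and did not pass, and TRIREDRAFT_104071 had 17 counts over all libraries and was not tested. TRIREDRAFT_2499, the gene after TRIREDRAFT_104073, rose by 1.93 ± 0.22, and TRIREDRAFT_56684, before TRIREDRAFT_104071, was at 0.23 ± 0.16 without passing.

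Genes on either side of TRIREDRAFT_62380 had smaller changes, TRIREDRAFT_108018 rising by 1.20 ± 0.37 (SE) from 0.708 ± 0.113 CPM and TRIREDRAFT_48707 falling by 0.25 ± 0.09. Both calls were lost with library totals alone, at 0.95 and -0.48. Further out, TRIREDRAFT_62432 rose by 0.41 ± 0.08, a call also lost with library totals alone (0.17), and TRIREDRAFT_71556, with 58 counts, was not tested. TRIREDRAFT_79202 fell between TRIREDRAFT_63981 and TRIREDRAFT_108663, which rose by 0.54 ± 0.08 and 1.04 ± 0.10, the former call being lost with library totals alone (0.30). Further out, TRIREDRAFT_122499 fell by 1.01 ± 0.15, and TRIREDRAFT_4484 was at -0.27 ± 0.35 without passing. The largest change among the tested flanking genes was that of TRIREDRAFT_110843, placed 2 genes after TRIREDRAFT_67752, which fell by 2.55 ± 0.24, from 9.66 ± 1.16 to 1.70 ± 0.54 CPM (SD, n = 3). Before TRIREDRAFT_67752, TRIREDRAFT_67658 rose by 0.30 ± 0.10, TRIREDRAFT_5363 was at 0.41 ± 0.25 without passing, and TRIREDRAFT_67597 after it was not tested. Beside hxt1, TRIREDRAFT_80340 rose by 0.24 ± 0.08, TRIREDRAFT_66353 at 0.13 ± 0.07 and TRIREDRAFT_4996 at 0.09 ± 0.11 did not pass, and TRIREDRAFT_109967 was not tested. Beside TRIREDRAFT_69957, TRIREDRAFT_69944 fell by 0.39 ± 0.15, TRIREDRAFT_112022, with 40 counts over all libraries, did not pass, and TRIREDRAFT_69896 and TRIREDRAFT_69883 were not tested. The calls of TRIREDRAFT_67658, TRIREDRAFT_80340 and TRIREDRAFT_69944 were lost with library totals alone, at 0.071, 0.011 and -0.59. TRIREDRAFT_77517 lay 1236 bp from the beta-glucosidase gene cel1b, which also did not pass, at a log2 fold change of 0.15 ± 0.10. Of the other genes flanking TRIREDRAFT_77517, TRIREDRAFT_77513 fell by 0.29 ± 0.10 and TRIREDRAFT_106885 by 0.32 ± 0.12, while TRIREDRAFT_60945 at 0.06 ± 0.12 did not pass. The calls of TRIREDRAFT_77513 and TRIREDRAFT_106885 were lost with library totals alone, at -0.52 and -0.55. TRIREDRAFT_46819 lay 907 bp from TRIREDRAFT_46816, which was listed here as a beta-glucosidase locus and was at 0.28 ± 0.13 without passing. On the same side TRIREDRAFT_121121 at 0.21 ± 0.11 did not pass, and TRIREDRAFT_73110 and TRIREDRAFT_105784 on the other side were not tested. Reads of neighbouring genes whose transcripts overlap could not be told apart, as the sources used here name neither the counting tool nor its strand setting.

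**Figure D4:**
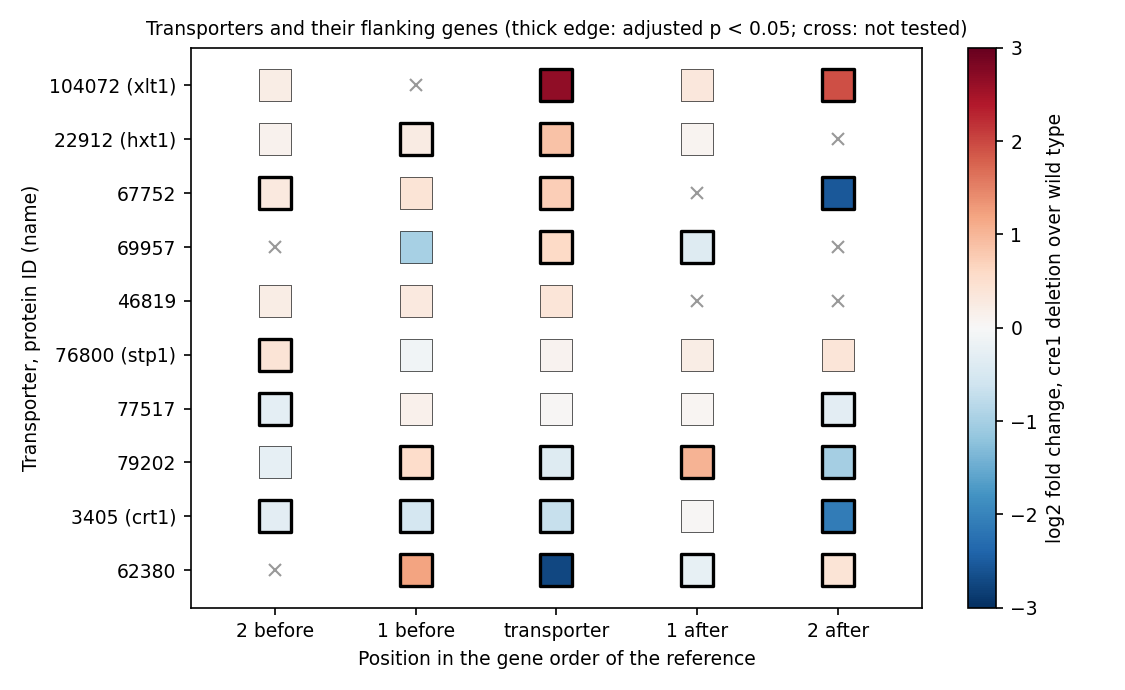
Log2 fold change (colour, mutant over wild type) of each transporter and of the 2 genes on either side of it in the reference gene order, with 1 row per transporter. Thick edges mark an adjusted p below 0.05 and crosses mark genes that were not tested. The strong rise of xlt1 and the strong fall of TRIREDRAFT_62380 are larger than the changes of the tested genes directly beside them.

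Enzymes that act on the sugars these transporters are known for are given beside the 22.7% of all genes that rose and the 23.2% that fell, or 4.88% and 19.8% with library totals alone. Their loci were assigned by locus tag, and 5 of 9 beta-glucosidases, 6 of 10 cellulases and accessory proteins and 1 of 11 xylan-degrading enzymes carry a symbol in the reference. These lists and the downstream ones were chosen with earlier results of these data known, so their shares and medians are description only. Of 9 beta-glucosidase loci, whose products split glucose disaccharides such as sophorose, 2 rose and 2 fell, with a median log2 fold change of 0.15 that became -0.09 with library totals alone. The share of beta-glucosidases called was near that of all genes. The extracellular enzyme gene cel3a rose by 1.67 ± 0.13 (SE), while cel1a fell by 0.63 ± 0.14 on the log2 scale. Among 10 loci of cellulases or accessory proteins, 5 were higher and 1 was lower (median 0.48), and of 10 tested xylan-degrading enzyme loci 7 rose and none fell (median 1.26), against a median of 0.01 over all genes. With library totals alone these counts were 4 and 1 and 5 and 0. In the cellulase list, the endoglucanase gene cel5b fell by 2.07 ± 0.10 and cel61a, for a cellulose-active oxidoreductase, rose by 1.19 ± 0.12, at -2.31 and 0.98 with library totals alone, where both calls held. The single xylan gene with a symbol, axe1 for acetyl xylan esterase, rose by 0.77 ± 0.24 from 34.5 ± 9.13 CPM, a call lost with library totals alone (0.57).

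Downstream of uptake, 3 of 10 genes of sugar phosphorylation, galactose use and pentose reduction rose and 5 fell (median -0.18), against 1 and 2 with library totals alone, again beside 22.7% and 23.2% of all genes, or 4.88% and 19.8%. Those with the smallest p were lxr1, at a log2 fold change of -1.90 ± 0.20 (SE), and the arabinitol dehydrogenase gene lad1 at 0.76 ± 0.13, which no longer passed with library totals alone (0.55). The xylose reductase gene xyl1 and the xylitol dehydrogenase gene xdh1, whose enzymes act on xylose once it has entered the cell, were picked after their values were seen. Their log2 fold changes were -0.27 ± 0.10 and 0.21 ± 0.08, beside 2.65 ± 0.12 for xlt1. Neither passed with library totals alone, where xyl1 was at -0.49 and xdh1 at -0.023. Of the glycolysis symbols sought, the reference gave only 3, so that other steps of glycolysis were not looked at. These 3 genes all fell (median -1.08), among them gpd1, for glyceraldehyde-phosphate dehydrogenase, by 1.08 ± 0.11 and pgk1, whose log2 fold change was -1.23 ± 0.10. A further gene, glt1, met the rule for transporter symbols and fell by 0.91 ± 0.12, but whether it encodes a transporter was not checked. A list of markers of conidia, the spores used as inoculum, matched no symbol in the reference and was not analysed here.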

How the data were processed

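RNA was extracted with TRIzol from 6 mycelial samples and libraries were made with the TruSeq RNA kit, per the labels' protocols. Per the submitters' processing notes, the tools were Bowtie 0.12.8, SAMtools 0.1.18 and DESeq 1.10.1. The sources used here name no counting tool, strand setting or genome build. The first deposited table holds raw read counts per protein ID. The second deposited table holds a signal that was checked to equal the count divided by 1 size factor per library, so that whole reads were recovered for every value and it holds the same data. The third holds the authors' log2 fold change and adjusted p-value.

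Counts were tested in R 4.3.3 with edgeR 4.0.16 (filterByExpr, TMM, robust glmQLFit with strain as the term, two-sided glmQLFTest), with Benjamini-Hochberg adjustment over all 8190 genes tested and a threshold of 0.05. Adjusted p-values named as edgeR come from this test, and the SE was obtained by dividing the log2 fold change by the root of the F statistic. The scripts were tested on simulated data with planted changes. Those libraries shared a common mean profile, and far fewer genes were changed than were called here. The uneven share of the abundant pair of IDs was therefore not covered by that test. Alternatives were DESeq2 1.42.0, other scalings, no filter, a replicate block and leaving out each library. The labels speak of biological replicates without naming separate cultures, so each p-value measures only the spread between these libraries, which may be technical. A total of 9072 IDs, all 10 transporters included, matched a locus tag of the RefSeq table for strain QM6a (assembly v2.0), which gave symbols, gene order and gene spans. Coding lengths, proteins and promoters were not used here, so gene spans replaced coding length, and the planned motif and identity comparisons were not run. The transporters and lists were chosen with earlier results of these data known. All 10 transporters are named; further genes were the 2 of most similar profile for each called transporter, flanking genes of called ones, and in each list the 2 with a symbol and the smallest p. The flanking genes of TRIREDRAFT_77517 and TRIREDRAFT_46819, the genes ranked beside crt1, xyl1, xdh1 and glt1 were added after their values were seen. The result for a list of regulators is not reported here.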

Additional observations from a re-analysis of the deposited data

How the results depend on the processing

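Of 120 values (10 transporters under 12 alternatives each), 105 kept their direction and their side of the threshold, 9 lost a call, 1 gained one and 5 changed sign. For crt1, xlt1, hxt1 and TRIREDRAFT_62380 all 12 alternatives kept the call. The sign changes were those of stp1 (TRIREDRAFT_76800, -0.13 with library totals alone, and -0.082 to 0.28 without single libraries) and TRIREDRAFT_77517 (-0.17 with library totals alone, and -0.099 to 0.13 without single libraries), neither of which was called. With library totals alone 2018 genes changed instead of 3762, 400 of them higher, and 2 transporters rose instead of 4. Leaving out single libraries gave 5 to 7 changed transporters and 3067 to 3655 changed genes. Deviations from the group means correlated at 0.17, 0.0354 and 0.11 between same-numbered libraries of the strains, the highest value for each wild-type library. Mutant replicate 2 alone correlated better with another number, wild-type replicate 3 (0.074). The labels name no pairs, so the main test did not take the numbers as pairs. A replicate block gave 3942 changed genes and the same count of 7 transporters. The summed level kept its sign under the 3 other scalings and without each single library, at log2 ratios of -0.82 to -0.50. Without crt1 the log2 ratio was near 0 on the TMM scale, the only scale used for that sum. The calls of TRIREDRAFT_79202 and TRIREDRAFT_69957 depended on single libraries, and the cause was not tested.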
